A study of Mus musculus with 24 samples.

Results

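The genes described here are 8 mouse genes that build, trim or desialylate glycosphingolipids, followed through 24 RNA samples of MC38, a mouse colorectal cancer cell line from the C57BL/6 strain. They were taken by name, with earlier results of these data known, and they are 8 of the 52636 gene identifiers in the table. Ugcg, B4galt5, B4galt6, B3gnt5 and St8sia1 encode enzymes that build the lipid-bound sugar chain, Gla encodes a lysosomal enzyme that shortens it, and Neu1 and Neu3 encode sialidases. Of these 8 genes, 6 were above 0 in each of the 24 samples, while B3gnt5 and St8sia1 were at 0 in each of them.

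The samples fall into 8 lines with 3 samples each. MC38-WT is the unmodified line. MC38-MOCK#1, MC38-CMAS KO, MC38-COSMC KO and MC38-DKO were made with CRISPR-Cas9, with no target gene, with Cmas, with C1galt1c1 (the gene of the chaperone COSMC) and with both of these genes as the target. MC38-MOCK#2, the line labelled MC38-FUT4 and MC38-FUT9 were made with CRISPR-dCas-VPR, a Cas9 without cutting activity that carries a transcriptional activator, with no target gene, Fut4 and Fut9 as the target. All lines but MC38-WT had been selected with puromycin. In the study the COSMC line was selected as a bulk population and not as a single clone, and its mock line received an empty construct. The labels give passages 4, 5 and 6 for the 4 CRISPR-Cas9 lines, 6, 7 and 8 for MC38-MOCK#2 and MC38-FUT9, 7, 8 and 7 for the line labelled MC38-FUT4, and 7, 8 and 9 for MC38-WT. Passage and line can therefore not be told apart where lines of different passages are compared. The labels do not say whether samples 1 and 3 of the line labelled MC38-FUT4, both of passage 7, were separate harvests.

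Glycosphingolipids are sugar chains on a ceramide anchor in the outer leaflet of the plasma membrane. UGCG adds glucose to ceramide, B4GALT5 and B4GALT6 add galactose to give lactosylceramide, and other transferases then branch the route into gangliosides (which carry sialic acid), globosides and the lacto series. The chains are taken down one sugar at a time in the lysosome by hydrolases that include α-galactosidase A, the product of Gla, and the sialidase NEU1, while NEU3 is a sialidase of the plasma membrane that prefers gangliosides. Of the targeted genes, Cmas activates the sialic acid that ganglioside synthesis uses, C1galt1c1 serves the elongation of O-glycans on proteins, and Fut4 and Fut9 encode fucosyltransferases that make Lewis antigens.

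The deposited values are read counts that the authors scaled by 1 factor per library and rounded, here called normalized counts. They summed to between 10911849 and 12263307 per sample, and the spacing of the rounded values put the reads behind them at 6759467 to 16231468. Cmas lay between 93 and 142 normalized counts in the 6 samples of MC38-CMAS KO and MC38-DKO and at 272 or above in all others. C1galt1c1 was 145, 163 and 124 in MC38-COSMC KO and 242, 220 and 251 in MC38-MOCK#1, but 206, 166 and 175 in MC38-DKO, which overlapped with other lines, and its RNA was not called lower in MC38-DKO. Fut9 was 955, 641 and 676 in MC38-FUT9. In the line labelled MC38-FUT4, Fut4 was 1, 0 and 1 and Fut9 was 209, 171 and 186, while Fut9 did not exceed 7 in the other 6 lines, so the label of that line goes against its RNA in all 3 of its samples. Of 10 colon epithelium markers, 9 stayed at or below 10 in every sample, with Epcam and Cdh1 near 0. The other, Krt20, reached 468 in the line labelled MC38-FUT4. All 6 leukocyte markers stayed at or below 10, and the 4 endothelial markers summed to at most 19. The 7 mesenchymal markers summed to between 33664 and 51550, mostly Vim and Fn1.

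The most uniform result concerned the branch points of synthesis, where 2 of the 8 genes had no reads in any line. Other genes of glycosphingolipid synthesis were at 0 in 24 of 24 samples too, among them A4galt of the globoside branch, Ugt8a and St6galnac3. Values of 0 were common in the table, where 20944 of 52636 identifiers were at 0 in no more than 16 of 24 samples. This is another cutoff than 0 in 24 of 24 samples. The share of all identifiers at 0 in 24 of 24 was not counted, so 2 of 8 cannot be set against it. B3gnt5, whose enzyme starts the lacto and neolacto series on lactosylceramide, was at 0 in 24 of 24 samples. St8sia1, which encodes GD3 synthase and opens the b series of gangliosides, was also at 0 in 24 of 24 samples. Each library multiplied its reads by a factor of at least 0.756, so a rounded 0 stands for 0 reads. Over all libraries together, 0 reads allow a level of up to 0.0107 RPM (3 reads in the summed depth, a limit that covers counting error only). The counting left out reads that fell in more than 1 gene, yet B3gnt5 (ENSMUSG00000022686, chr16:19760208-19772753, plus strand, GRCm38) shares 0% of its 5197 exon bases with another gene. St8sia1 (ENSMUSG00000030283, chr6:142821545-142964452, minus strand) shares 1.6% of its 9341 exon bases. Both genes were thus below what this depth could detect in MC38, in all 8 lines. The limit given holds for all libraries together and is higher for a single line, which has fewer reads. Below, silent means 0 reads in every sample. Of the B3gnt relatives, B3gnt3, which elongates chains on proteins, had a mean of 289 normalized counts over all samples. It fell from 202, 199 and 269 in MC38-MOCK#2 to 25, 26 and 35 in MC38-FUT9. B3gnt9 had a mean of 61.1, and B3gnt2, B3gnt4, B3gnt6, B3gnt7 and B3gnt8 did not exceed 6 in any sample. B3gnt2, however, shares 75.3% of its exon bases with other genes. Of the St8sia relatives, St8sia2 and St8sia3 were at 0 in every sample, and St8sia4, St8sia5 and St8sia6 did not exceed 6.

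The upstream sequences of these silent genes are shown beside those of B4galt5 and Neu1, which were expressed in every sample, for comparison of what lies before a silent and an expressed start. The sequences are from RefSeq (GRCm38.p6), read 5′ to 3′ on the strand of the gene, end at the base before the first annotated exon and hold no exon of any annotated gene. Capitals mark each CpG dinucleotide. The stretches are chr16:19759984-19760207 for B3gnt5, chr6:142964453-142964702 for St8sia1, chr2:167349184-167349428 for B4galt5 and chr17:34931003-34931252 for Neu1.
B3gnt5: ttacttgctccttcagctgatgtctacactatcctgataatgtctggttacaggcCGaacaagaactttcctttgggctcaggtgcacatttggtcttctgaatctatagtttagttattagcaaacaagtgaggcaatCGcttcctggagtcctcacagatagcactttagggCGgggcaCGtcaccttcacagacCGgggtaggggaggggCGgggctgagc
St8sia1: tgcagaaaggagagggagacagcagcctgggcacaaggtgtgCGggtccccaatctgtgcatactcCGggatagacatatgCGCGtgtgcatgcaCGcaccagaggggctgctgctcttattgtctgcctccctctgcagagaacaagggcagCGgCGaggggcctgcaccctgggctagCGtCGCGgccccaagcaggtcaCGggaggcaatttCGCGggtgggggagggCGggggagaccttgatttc
B4galt5: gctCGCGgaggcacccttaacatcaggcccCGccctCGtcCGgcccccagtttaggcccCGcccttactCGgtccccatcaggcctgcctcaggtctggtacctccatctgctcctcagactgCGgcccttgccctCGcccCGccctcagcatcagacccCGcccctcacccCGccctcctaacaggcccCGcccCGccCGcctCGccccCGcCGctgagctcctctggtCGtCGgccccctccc
Neu1: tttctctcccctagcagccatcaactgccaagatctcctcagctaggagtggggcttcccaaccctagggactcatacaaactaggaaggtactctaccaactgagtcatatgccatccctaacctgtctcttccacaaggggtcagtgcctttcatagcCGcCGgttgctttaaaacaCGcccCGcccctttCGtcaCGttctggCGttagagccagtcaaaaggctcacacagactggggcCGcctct
The stretch of silent St8sia1 holds 14 CpG in 250 bases, more than the 8 in 250 bases of expressed Neu1, and the 20 CpG in 245 bases of B4galt5 and the 6 in 224 bases of B3gnt5 lie on either side.

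RefSeq gave a window of 250 bases for 7 of the 8 genes, all but B4galt6, upstream of the RefSeq start. This start can differ from that of the annotation used for counting. The Ugcg window, chr4:59189300-59189549, lies wholly past the annotated start at 59189257 and so inside the gene. The Gla window, chrX:134601006-134601255, reaches into the gene, annotated up to 134601125, and those of B4galt5 and B3gnt5 do so by fewer bases. Within these windows the CpG count ran from 7 in B3gnt5 and Neu3 to 43 in Ugcg, against a median of 6 over all 32851 mouse promoters of the table. The letters GGGCGG, searched on both strands, were present in 7 of 7 windows, those of B3gnt5 and St8sia1 included, and in 32.7% of all promoters. CCAAT was found in the windows of St8sia1, Gla and Neu3 and in 33.9% of all promoters, and TATAAA in 0 of 7 and in 12.4% of all. CACGTG, which reads the same on both strands, was found before Gla alone, in 2 copies, and in 6.02% of all promoters. Both copies also lie in an exon of Hnrnph2, which is annotated on the opposite strand next to Gla. A match is a string of letters in this window and not a site of binding.

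Among the 6 expressed genes, the level per length set B4galt5 and Neu3 apart from the rest. Over all samples the mean was 161 normalized counts per kb of exon for B4galt5, 88.3 for Gla, 86.7 for Neu1, 85.8 for Ugcg, 74.9 for B4galt6 and 6.76 for Neu3. Neu2 and Neu4, the remaining sialidase genes, were near or at 0, Neu2 with 20 and Neu4 with 24 of 24 samples at 0. Neu1 and Neu3 were thus the sialidase genes with RNA in every sample.

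Each of the 6 expressed genes differed among the 8 lines. The F test of limma over all 24 samples, with Benjamini-Hochberg adjustment over 20944 genes, gave an adjusted p of 1.75e-05 for Ugcg, 0.00841 for B4galt5, 7.11e-07 for B4galt6, 0.024 for Gla, 0.00125 for Neu1 and 0.0219 for Neu3. In bulk samples such as these, fewer cells that express a gene and less RNA per cell cannot be told apart. The background of the F test is high, since 48.2% of all tested genes passed the same test. The highest line mean exceeded the lowest 1.36-fold for B4galt5 and between 1.84-fold and 2.06-fold for the other 5 genes. Within lines the samples varied least for B4galt6 and B4galt5, with coefficients of variation of 7.04% and 7.3%, and most for Gla and Neu3, with 19.5% and 17.9%. The adjusted p from limma for Gla rose to 0.0617 and that for Neu3 to 0.0539 when single samples were left out. For Gla these were samples 2 and 3 of MC38-WT and of the line labelled MC38-FUT4, and for Neu3 samples 2 and 3 of MC38-FUT9. Without a mean-variance trend Gla also missed the threshold (adjusted p = 0.0595 from limma).

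**Figure D1:**
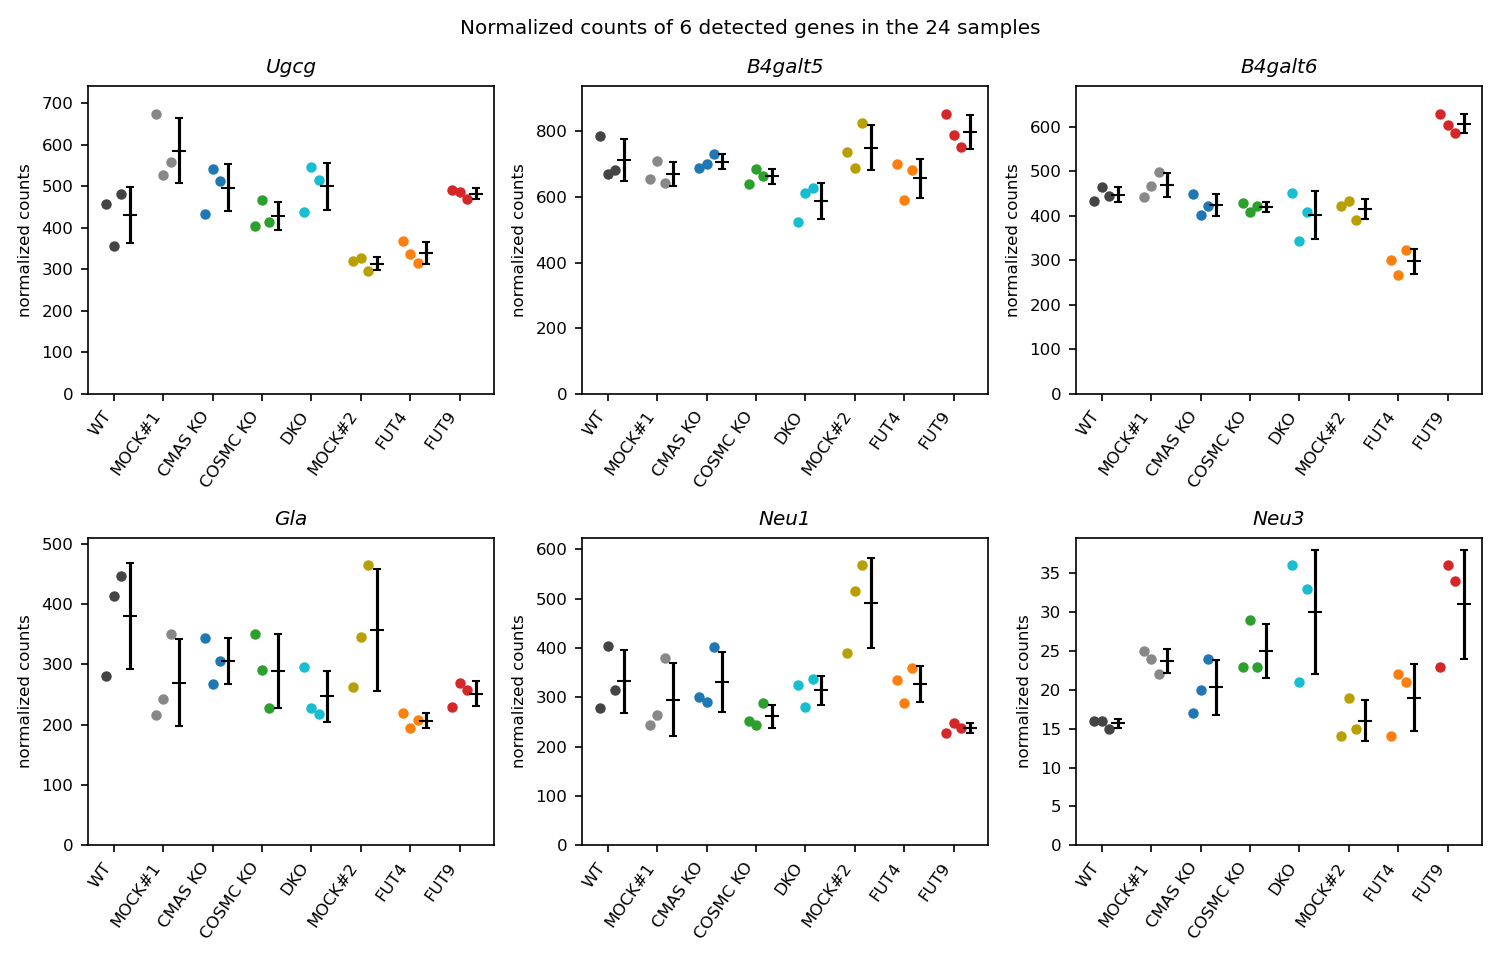
Normalized counts (vertical axes, from 0) of Ugcg, B4galt5, B4galt6, Gla, Neu1 and Neu3 in the 8 lines, with a point for each of the 3 samples of a line and the mean with its SD to the right of the points. The 3 MC38-FUT9 samples of B4galt6 lie between 587 and 629, above all others, and the MC38-MOCK#2 samples of Ugcg between 295 and 327, with those of the line labelled MC38-FUT4 next.

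Ugcg (ENSMUSG00000028381, chr4:59189257-59222833, plus strand), the entry to the pathway, was highest in MC38-MOCK#1 at 674, 526 and 558 normalized counts, 586 ± 77.9 (SD, n = 3). It was 437, 547 and 514 in MC38-DKO, 433, 542 and 513 in MC38-CMAS KO, and 404, 467 and 414 in MC38-COSMC KO. It was 456, 355 and 482 in MC38-WT. Of the dCas-VPR lines, MC38-FUT9 lay in the same range at 492, 487 and 468, while it was 367, 337 and 314 in the line labelled MC38-FUT4. MC38-MOCK#2 was lowest, with 319, 327 and 295. In the order of the line means, the only neighbours of 7 pairs without overlapping samples were MC38-COSMC KO and the line labelled MC38-FUT4.

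B4galt5 (ENSMUSG00000017929, chr2:167298444-167349183, minus strand), the major lactosylceramide synthase gene, moved little. It was highest in MC38-FUT9 at 853, 789 and 751 normalized counts and lowest in MC38-DKO at 525, 611 and 628. Its samples were 738, 689 and 824 in MC38-MOCK#2, and 702, 590 and 681 in the line labelled MC38-FUT4. In the order of the line means, all 7 neighbouring pairs overlapped. The remaining lines, MC38-WT, MC38-CMAS KO, MC38-MOCK#1 and MC38-COSMC KO, had means between 663 and 712.

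B4galt6 (ENSMUSG00000056124, chr18:20684599-20746404, minus strand) encodes the second enzyme for the same reaction and separated the lines more sharply. MC38-FUT9 had 629, 605 and 587 normalized counts, above all other 21 samples. The line labelled MC38-FUT4 had 300, 268 and 324, below all others. The remaining 6 lines had means between 401 in MC38-DKO and 469 in MC38-MOCK#1, and their neighbours in order overlapped. Since both enzymes act on glucosylceramide, their ratio per exon length was taken in each sample. B4galt5 exceeded B4galt6 in 24 of 24 samples, by 1.57-fold to 3.15-fold with a median of 2.09-fold. The ratio was 1.77 ± 0.0528 in MC38-FUT9, 2.45 ± 0.359 in MC38-MOCK#2 and 2.99 ± 0.161 in the line labelled MC38-FUT4 (SD, n = 3 each). The samples of MC38-FUT9, at most 1.83, did not overlap with those of MC38-MOCK#2, at least 2.14, while those of the line labelled MC38-FUT4, at least 2.83, overlapped with the highest MC38-MOCK#2 sample at 2.84.

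**Figure D2:**
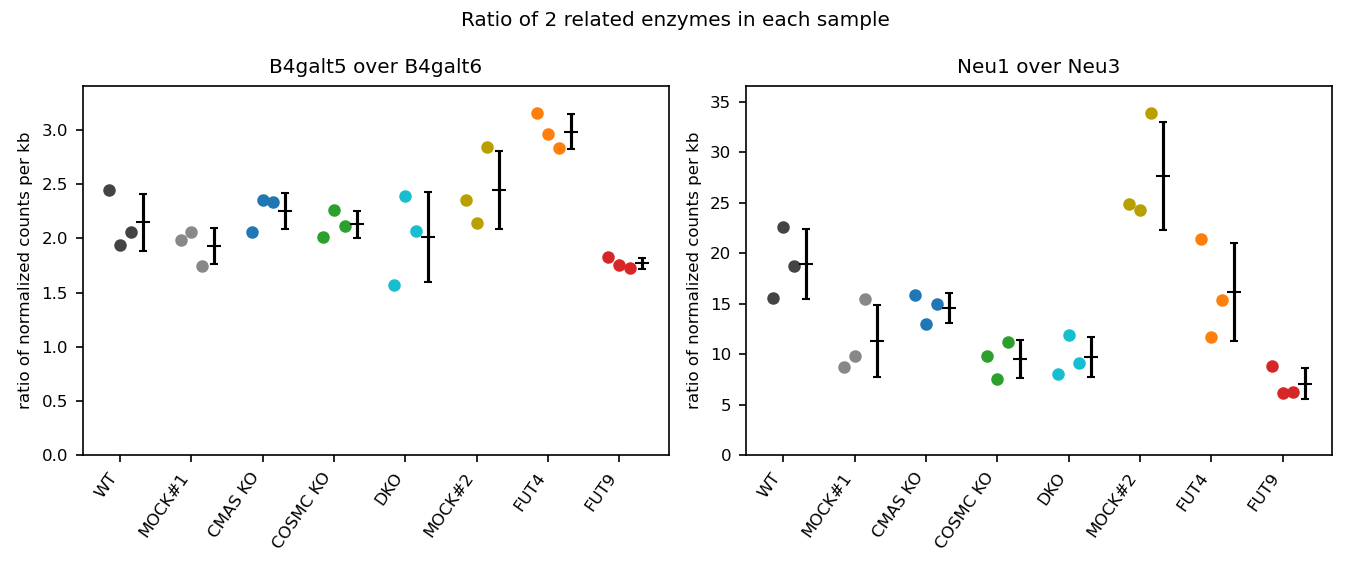
Ratio of normalized counts per kb of exon (vertical axes, from 0) of B4galt5 over B4galt6 and of Neu1 over Neu3, with a point for each sample and the mean with its SD to the right of the points. B4galt5 over B4galt6 was lowest in MC38-FUT9 (1.77) and highest in the line labelled MC38-FUT4 (2.99), and Neu1 over Neu3 was lowest in MC38-FUT9 (7.09) and highest in MC38-MOCK#2 (27.7).

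Gla (ENSMUSG00000031266, chrX:134588149-134601125, minus strand) spread widely within lines. It was 281, 413 and 447 normalized counts in MC38-WT and 262, 346 and 464 in MC38-MOCK#2. It was 219, 194 and 207 in the line labelled MC38-FUT4 and 229, 269 and 257 in MC38-FUT9. The lines with the 2 highest means were therefore also those with the largest spread, and all 7 neighbouring pairs overlapped. In the CRISPR-Cas9 lines the means ran from 247 in MC38-DKO to 306 in MC38-CMAS KO.

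Neu1 (ENSMUSG00000007038, chr17:34931253-34935953, plus strand) was highest in MC38-MOCK#2 at 389, 515 and 567 normalized counts, 490 ± 91.5 (SD, n = 3). It was 334, 288 and 360 in the line labelled MC38-FUT4 and lowest in MC38-FUT9 at 228, 247 and 238. Every MC38-FUT9 sample was below every sample of MC38-MOCK#2 and of the line labelled MC38-FUT4. MC38-WT and the CRISPR-Cas9 lines had means between 261 in MC38-COSMC KO and 332 in MC38-WT, and neighbours in the order of means overlapped.

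Neu3 (ENSMUSG00000035239, chr7:99811439-99828417, minus strand) was the least abundant of the expressed genes, at 14 to 36 normalized counts. It was 23, 36 and 34 in MC38-FUT9 and 36, 21 and 33 in MC38-DKO, and 16, 16 and 15 in MC38-WT and 14, 19 and 15 in MC38-MOCK#2. At this level a single read is worth between 0.756 and 1.67 normalized counts, and all 7 neighbouring pairs in order overlapped. The ratio of Neu1 to Neu3 per exon length was 27.7 ± 5.36 in MC38-MOCK#2 and 7.09 ± 1.54 in MC38-FUT9 (SD, n = 3 each), without overlap between them. Over the 8 line means the log2 values of Neu1 and Neu3 had a Pearson r of -0.75, and those of Neu1 and Ugcg had one of -0.64, whereas within lines Gla and Neu1 had one of 0.58 over 24 samples. These correlations describe 8 lines or 24 samples that share lines and libraries.

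The clearest change of the pathway genes was that of MC38-FUT9 against its mock line MC38-MOCK#2, the comparison of an activated Fut9 with the empty system. RNA of glucosylceramide synthase and of the second lactosylceramide synthase rose, and that of the lysosomal sialidase fell. Ugcg went from 319, 327 and 295 to 492, 487 and 468 normalized counts, a log2 difference of 0.62 (standard error 0.0727, adjusted p = 0.00171 from limma). B4galt6 went from 422, 434 and 391 to 629, 605 and 587, a log2 difference of 0.55 (standard error 0.0711, adjusted p = 0.0025 from limma). Neu1 went from 389, 515 and 567 to 228, 247 and 238 and fell by 1.02 on the log2 scale (standard error 0.142, adjusted p = 0.00316 from limma). None of these 3 genes had overlapping samples, and each stayed called under every alternative setting tried and without any single sample. Of all lines, however, MC38-MOCK#2 had the lowest mean for Ugcg and the highest for Neu1, for which MC38-FUT9 had the lowest. For Ugcg and Neu1 the samples of MC38-FUT9 overlapped with those of CRISPR-Cas9 lines, MC38-MOCK#1 among them for Neu1. For Ugcg they (468 to 492) also overlapped with those of unmodified MC38-WT (355 to 482), but not for Neu1. A test of MC38-FUT9 against MC38-WT was not run. For B4galt6 alone did MC38-FUT9 lie apart from every other line. Of the marker lists, 1 of 6 mesenchymal genes tested was called, Pdgfra, at 990, 910 and 1427 normalized counts against 573, 535 and 816, and its part in the result was not tested. The mesenchymal list summed to between 33800 and 46312 in MC38-FUT9 and between 33664 and 35880 in MC38-MOCK#2. Of the 8 genes, 6 were tested, 2 were higher and 1 lower, where 12.1% of 21480 tested genes were higher and 12% lower.

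The other genes did not pass in this comparison. Neu3 was higher by 0.90 on the log2 scale (95% interval 0.26 to 1.54, adjusted p = 0.0518 from limma). It passed without sample 1 of MC38-FUT9 (adjusted p = 0.0473 from limma) and under 3 of 8 other settings, namely a mean of at least 10, no trend and a fit of all lines (adjusted p 0.0127 to 0.0496 from limma). Gla differed by -0.47 (95% interval -0.94 to 0.0041, adjusted p = 0.146 from limma) and passed only without sample 1 of MC38-MOCK#2 (log2 fold change -0.67, adjusted p = 0.0468 from limma). B4galt5 differed by 0.09 (95% interval -0.12 to 0.30, adjusted p = 0.522 from limma). The median over the 6 genes was 0.32, against 0.01 over all tested genes.

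**Figure D3:**
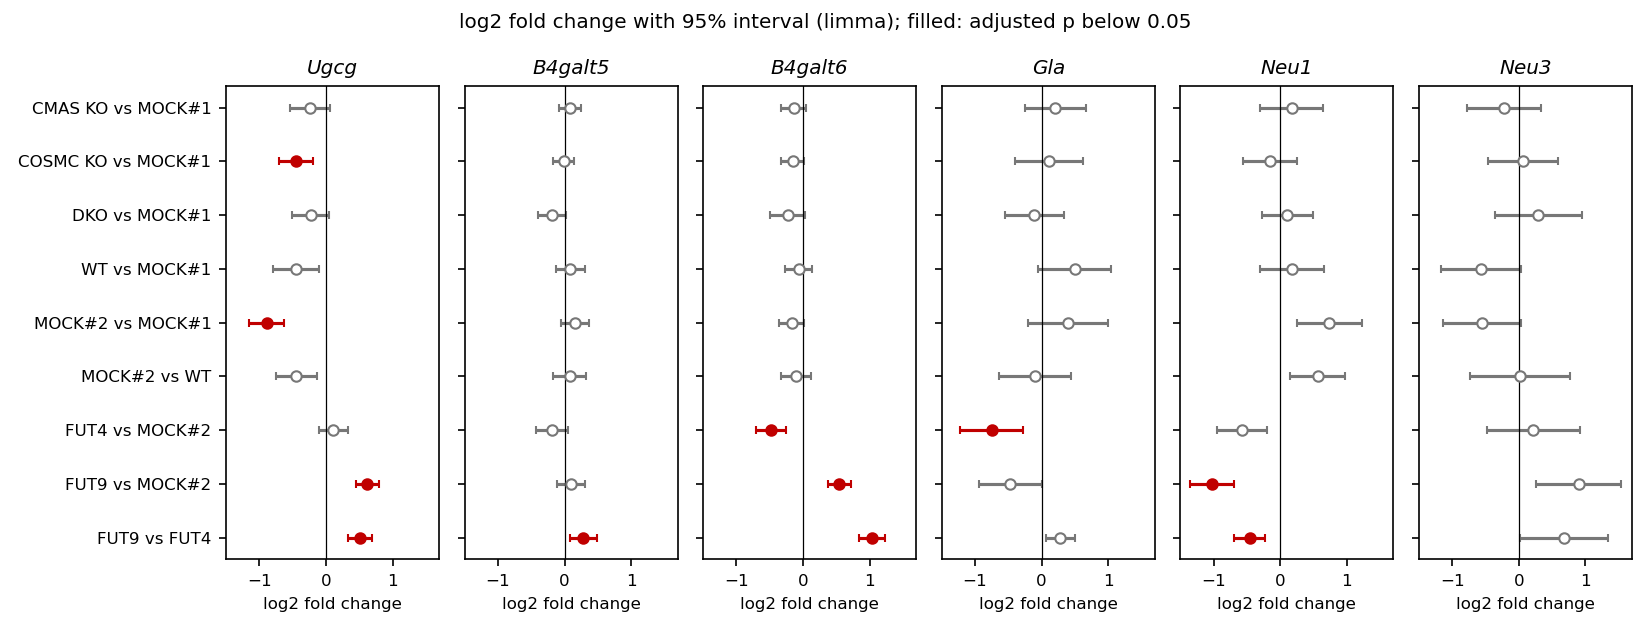
log2 fold change (horizontal axes) of the 6 expressed genes in 9 comparisons of 2 lines (rows, the first-named line minus the second), with 95% intervals from limma. Filled red points have an adjusted p below 0.05 and open grey points do not. MC38-FUT9 against MC38-MOCK#2 has filled points for Ugcg, B4galt6 and Neu1, and those of MC38-CMAS KO, MC38-DKO and MC38-WT against MC38-MOCK#1 and of MC38-MOCK#2 against MC38-WT are all open.

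The rest of the pathway gives these changes their setting. Of 15 genes that elongate glycosphingolipids beyond lactosylceramide, 7 were tested, of which 1 rose and 4 fell. The gene that rose was B4galnt1, whose enzyme makes the gangliosides GM2 and GD2, from 508, 454 and 443 to 1103, 1028 and 937 normalized counts. St3gal5, the GM3 synthase gene, fell by 0.87 on the log2 scale, from 474, 529 and 488 to 265, 278 and 271, and B3galt4, which makes GM1, fell from 43, 46 and 53 to 19, 30 and 16. B3galnt1 and Gbgt1, of the globoside branch, were at 0 or 1 in each MC38-FUT9 sample against 26, 23 and 21 and against 27, 26 and 83. For St3gal5, B3galnt1 and Gbgt1 it was MC38-MOCK#2 that stood apart, since its 3 samples lay above all other 21 samples. In the other 7 lines B3galnt1 did not exceed 6 and Gbgt1 did not exceed 9, and the line means of St3gal5 ran from 242 to 341. Of the genes of glycosphingolipid breakdown, Glb1 and Ctsa fell, with Neu1 beside them. Ctsa, like Neu1, had its highest line mean in MC38-MOCK#2 and its lowest in MC38-FUT9. CTSA is the protein that NEU1 needs for its activity in the lysosome. Of 22 lysosomal genes, 3 rose and 10 fell, and their median was -0.50 on the log2 scale. Of those that fell, Tfe3, Fuca1, Atp6v0d1, Lamp1 and Lamp2 had their highest line mean in MC38-MOCK#2. All of these and Mcoln1 were also called lower in the line labelled MC38-FUT4 against MC38-MOCK#2. Ctsb, Ctsd, Gaa and Man2b1, by contrast, had their lowest line mean in MC38-FUT9 and were not called lower in that other line. Of 22 genes of ceramide supply 19 were tested, of which 6 rose and 1 fell, with a median of 0.16.

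**Figure D4:**
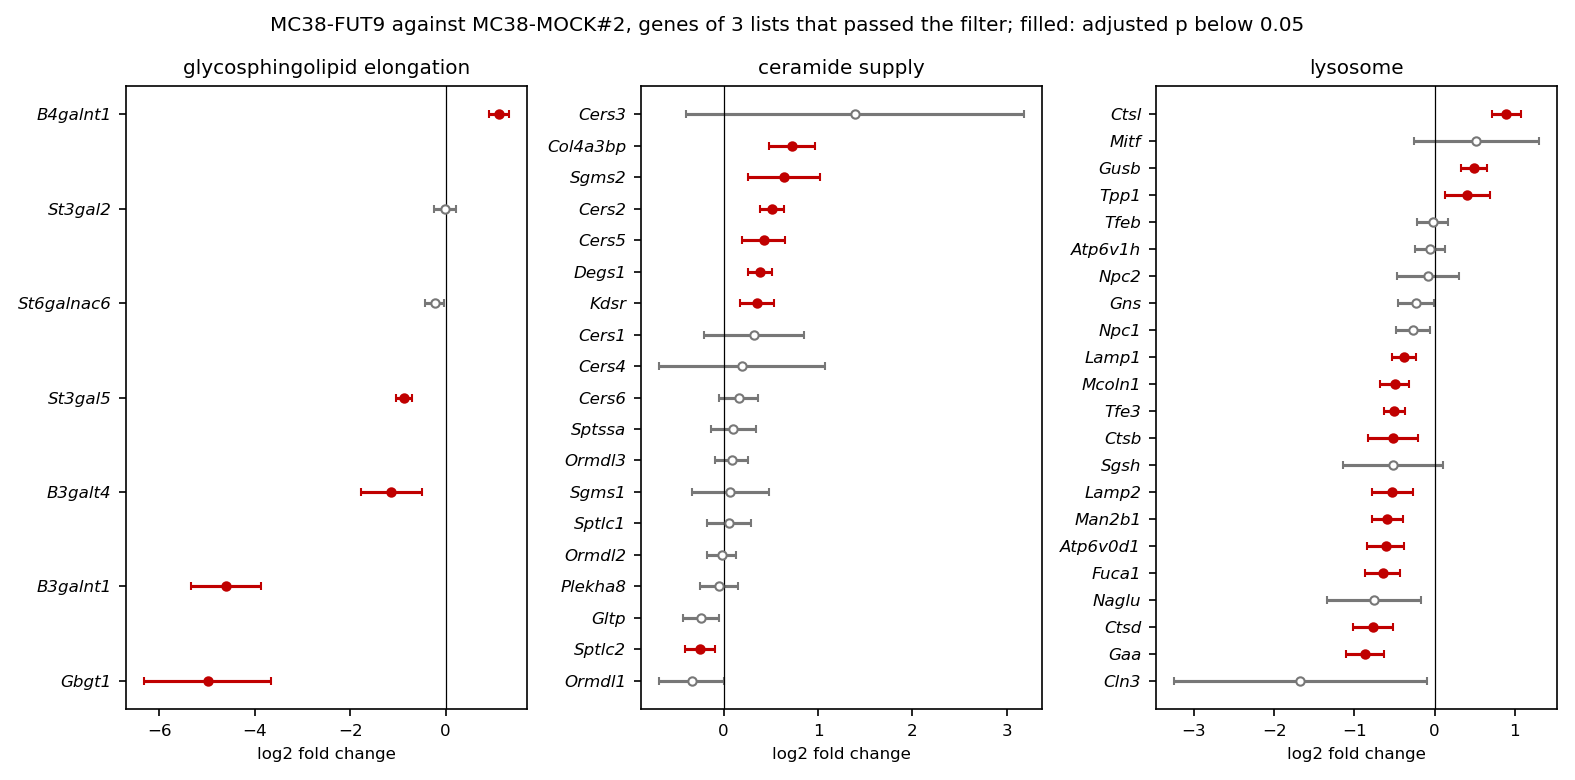
log2 fold change (horizontal axes) of MC38-FUT9 against MC38-MOCK#2 for each gene of the elongation, ceramide supply and lysosome lists that passed the filter on zeros, with 95% intervals from limma and filled points for an adjusted p below 0.05. In the elongation list 4 filled points lie to the left of 0 and 1 to the right, and in the lysosome list 10 to the left and 3 to the right.

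The line labelled MC38-FUT4, compared with the same mock line, showed lower B4galt6 and lower Gla. B4galt6 was 300, 268 and 324 normalized counts against 422, 434 and 391, and fell by 0.48 on the log2 scale (standard error 0.0961, adjusted p = 0.0167 from limma). Gla was 219, 194 and 207 against 262, 346 and 464, and fell by 0.75 (standard error 0.198, adjusted p = 0.0451 from limma). Neither gene had overlapping samples. These were 2 lower and 0 higher of 6 genes tested, where 8.04% of 21734 tested genes were lower and 8.1% higher. Neu1, at 334, 288 and 360 against 389, 515 and 567, was just outside the threshold with a log2 difference of -0.57 (adjusted p = 0.0514 from limma). Under 4 of 8 other settings, namely a pseudocount of 5, no filter, a mean of at least 10 and a fit of all lines, Neu1 was called lower (adjusted p 0.0172 to 0.0488 from limma). Ugcg differed by 0.11 (95% interval -0.10 to 0.33), B4galt5 by -0.19 (95% interval -0.43 to 0.05) and Neu3 by 0.22 (95% interval -0.48 to 0.92). The median over the 6 genes was -0.34, and that over all tested genes was 0.

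These calls were near the threshold. The one for B4galt6 was lost without sample 1 of the line labelled MC38-FUT4 and without samples 1 or 2 of MC38-MOCK#2 (adjusted p 0.0636 to 0.0753 from limma). The one for Gla was lost without any of 5 of the 6 samples, the exception being sample 1 of MC38-MOCK#2 (adjusted p 0.0721 to 0.162 from limma), and Neu1 passed without that sample (adjusted p = 0.0275 from limma). Markers of other cell types moved with this line, and their part in the result was not tested. Of the 10 colon epithelium markers 5 were tested, of which Krt20 rose to 448, 263 and 468 normalized counts from 1, 0 and 0 and Vil1 fell to 1, 0 and 0 from 3, 3 and 8. Of the 7 mesenchymal markers 6 were tested and 3 fell, Pdgfrb to 117, 117 and 135 from 471, 581 and 1100, Col1a1 to 31, 19 and 26 from 134, 90 and 109, and Col1a2 to 4, 9 and 6 from 30, 26 and 23, while Thy1 was at 0 in every sample. The endothelial marker Cdh5 rose to 10, 6 and 16 from 0, 0 and 3, and the leukocyte marker Ptprc to 3, 5 and 1 from 0, 0 and 0. Summed, the colon epithelium list was 266 to 476 in this line, nearly all of it Krt20, and 6 to 19 in MC38-MOCK#2. In the same order, the mesenchymal list was 35766 to 38815 and 33664 to 35880, the endothelial list 6 to 19 and 2 to 7, and the leukocyte list 4 to 6 and 0 to 1. Of the elongation list 8 genes were tested, and St6galnac6 rose while St3gal5, B3galnt1 and Gbgt1 fell. Of the breakdown list, 0 of 13 tested genes rose and 3 fell, namely Gm2a, Scarb2 and Ctsa, and of the lysosome list 3 of 22 rose and 9 fell.

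MC38-FUT9 and the line labelled MC38-FUT4 were also compared directly, a comparison added after the values were seen. The mock line that both shared above does not enter here, and both lines carry Fut9 RNA. B4galt6 was 629, 605 and 587 normalized counts in the first and 300, 268 and 324 in the second, a log2 difference of 1.03 (standard error 0.0837, adjusted p = 0.000238 from limma). Ugcg was higher by 0.51 (standard error 0.0752, adjusted p = 0.00263 from limma), at 492, 487 and 468 against 367, 337 and 314. Both genes stood apart without overlap and stayed called under every setting tried. Neu1, at 228, 247 and 238 against 334, 288 and 360, had a log2 difference of -0.45 (standard error 0.0977, adjusted p = 0.0125 from limma). Its call was lost without sample 1 of MC38-FUT9 (adjusted p = 0.0563 from limma) or sample 1 of the line labelled MC38-FUT4 (adjusted p = 0.0574 from limma), and with a replicate block (adjusted p = 0.0529 from limma). B4galt5 was higher by 0.28 (standard error 0.086, adjusted p = 0.0468 from limma), at 853, 789 and 751 against 702, 590 and 681, and lost its call without any single one of the 6 samples (adjusted p 0.0677 to 0.153 from limma) and under 4 of 8 other settings, among them all samples rescaled to the same total (0.20, adjusted p = 0.133 from limma). These were 3 higher and 1 lower of 6 genes tested, where 15.7% of 21961 tested genes were higher and 15.8% lower. Gla (0.28, adjusted p = 0.0585 from limma) and Neu3 (0.68, adjusted p = 0.116 from limma) did not pass, Gla passing without sample 1 of MC38-FUT9 (adjusted p = 0.0422 from limma) and with a mean of at least 10 (adjusted p = 0.047 from limma). Among the colon epithelium, endothelium and mesenchymal markers, Krt20, Cdh5 and Vim were called lower and Col1a1, Pdgfra and Pdgfrb higher in MC38-FUT9, and their part in these differences was not tested. The lists of colon epithelium and endothelium each summed to 2 to 6 in MC38-FUT9, where the line labelled MC38-FUT4 had the sums given above, and the mesenchymal list to between 33800 and 46312.

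The C1galt1c1 knockout truncates O-glycans on proteins, and it was compared with MC38-MOCK#1. Ugcg fell and the other 5 genes tested did not pass. Ugcg was 404, 467 and 414 normalized counts in MC38-COSMC KO against 674, 526 and 558, and fell by 0.45 on the log2 scale (standard error 0.11, adjusted p = 0.0429 from limma), without overlap. That was 1 lower and 0 higher of 6, where 5.39% of 22172 tested genes were lower and 6.17% higher. The call was lost without any single one of the 6 samples (adjusted p 0.0861 to 0.153 from limma), while the log2 fold change stayed between -0.52 and -0.34. Untargeted MC38-WT also differed in Ugcg by -0.45 from the same MC38-MOCK#1 samples, without a call (adjusted p = 0.14 from limma). MC38-MOCK#1 had the highest Ugcg mean of all lines. Of 6 mesenchymal markers tested, 2 rose in MC38-COSMC KO against MC38-MOCK#1, Pdgfrb to 520, 448 and 440 normalized counts from 61, 65 and 189 and Col1a2 to 53, 34 and 62 from 21, 21 and 18, and their part in the result was not tested. The list summed to between 39739 and 43025 in MC38-COSMC KO and between 36193 and 40691 in MC38-MOCK#1, and 0 of the tested markers of colon epithelium, endothelium and leukocytes were called. The log2 fold changes of the other 5 genes lay between -0.16 for B4galt6 and 0.11 for Gla (adjusted p 0.222 to 0.938 from limma). The intervals were narrowest for B4galt5, at -0.17 to 0.14, and widest for Neu3, at -0.46 to 0.59. In the elongation list B4galnt1 rose and St3gal5 and St6galnac6 fell among 7 tested, and in the breakdown list Ctsa, Gm2a and Psap rose and Galc fell. Of these, St6galnac6, Gm2a and Galc were called in the same direction in untargeted MC38-WT against MC38-MOCK#1, and B4galnt1, St3gal5, Ctsa and Psap were not. The median over the 6 genes was -0.08, with 0 over all tested genes.

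Knockout of Cmas removes the activated sialic acid on which ganglioside synthesis draws, and the genes described here showed no called change. In MC38-CMAS KO against MC38-MOCK#1, 0 of 6 genes were called, where 3.02% of 22024 tested genes were higher and 2.73% lower. Ugcg was 433, 542 and 513 normalized counts against 674, 526 and 558, a log2 difference of -0.24 (95% interval -0.53 to 0.06). Neu1 was 301, 290 and 401 against 243, 264 and 379, and Neu3 was 17, 20 and 24 against 25, 24 and 22, so the samples of both sialidase genes overlapped between the lines. The 6 log2 fold changes lay between -0.24 and 0.20 (adjusted p 0.331 to 0.679 from limma), with a median of -0.03. The intervals of Gla, -0.25 to 0.66, and of Neu3, -0.78 to 0.34, were wide, and at an unadjusted p below 0.05 limma passed 0 of the 6 genes. In the breakdown list Ctsa, Gm2a and Psap rose and Galc fell, and in the elongation list 0 of 8 were called, with 2 of 8 at an unadjusted p below 0.05. Gm2a and Galc, but not Ctsa and Psap, were called in the same direction in MC38-WT against MC38-MOCK#1. Of 6 mesenchymal markers tested 3 rose, Col1a1 to 175, 230 and 255 normalized counts from 24, 22 and 39, Col1a2 to 76, 59 and 78 from 21, 21 and 18 and Pdgfrb to 370, 298 and 390 from 61, 65 and 189, and the colon epithelium marker Krt20 rose to 44, 41 and 30 from 0, 0 and 2. The mesenchymal list summed to between 43720 and 48567 in MC38-CMAS KO and the colon epithelium list, mostly Krt20, to between 31 and 49, against 2 to 10 in MC38-MOCK#1.

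In MC38-DKO against MC38-MOCK#1, 0 of 6 genes were called as well, where 0.023% of 21738 tested genes were higher and 0.069% lower. Ugcg, at 437, 547 and 514 normalized counts, differed by -0.23 (95% interval -0.51 to 0.05), B4galt5 by -0.19 (95% interval -0.40 to 0.02) and B4galt6, at 451, 344 and 409 against 443, 466 and 498, by -0.23 (95% interval -0.49 to 0.03). All 3 synthesis genes had negative values whose intervals reached 0. Neu3 was 36, 21 and 33 against 25, 24 and 22 (0.30, 95% interval -0.35 to 0.95). Adjusted p-values lay between 0.717 and 0.936 from limma. At an unadjusted p below 0.05, 0 of the 6 genes passed. Limma called 0 of the elongation, ceramide supply and lysosome genes, and 0 of 7, 1 of 19 and 3 of 22 of them had an unadjusted p below 0.05.

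Whether the change with the C1galt1c1 target depended on Cmas was tested as an interaction over the 12 samples of MC38-MOCK#1, MC38-CMAS KO, MC38-COSMC KO and MC38-DKO. In words, it is the difference of MC38-DKO from MC38-CMAS KO less that of MC38-COSMC KO from MC38-MOCK#1. C1galt1c1 RNA was itself called positive in this test, and against MC38-MOCK#1 it was called lower in MC38-COSMC KO but not in MC38-DKO. The contrast therefore does not compare an equal fall of C1galt1c1 RNA with and without the Cmas target. Each combination of targets was also a single line. Against MC38-MOCK#1, 0.023% of tested genes were called higher and 0.069% lower in MC38-DKO, but 2.7% and 2.81% in untargeted MC38-WT. A state shared by MC38-MOCK#1 and MC38-DKO can thus not be told apart from a dependence on Cmas. The contrast was called for 0 of 6 genes, where it was positive for 11.1% and negative for 11% of 21396 tested genes. Its value was largest for Ugcg, 0.46 (95% interval 0.09 to 0.82, adjusted p = 0.0694 from limma), and passed without sample 1 of MC38-DKO (0.55, adjusted p = 0.0327 from limma). The other 5 values lay between -0.42 for Gla and 0.45 for Neu3. At an unadjusted p below 0.05, 2 of 6 passed, Ugcg and B4galt5 (-0.26). Genes of the pathway did pass it, with St3gal5 and St6galnac6 positive and B4galnt1 negative among 7 tested elongation genes, and, of the breakdown genes, Galc positive and Ctsa, Gm2a and Psap negative. Gm2a, whose product presents the ganglioside GM2 for breakdown, was 0, 0 and 0 normalized counts in MC38-DKO and 1, 0 and 0 in MC38-MOCK#1, but 9, 9 and 10 in MC38-CMAS KO and 23, 4 and 11 in MC38-COSMC KO. Unmodified MC38-WT had 12, 20 and 8, MC38-MOCK#2 13, 19 and 25 and MC38-FUT9 32, 20 and 26. The line labelled MC38-FUT4 had 0, 0 and 0, so the low lines were this one, MC38-MOCK#1 and MC38-DKO.

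The lines without a targeted gene give the background for these differences. MC38-MOCK#2 against MC38-MOCK#1 had the largest change of Ugcg of any comparison of 2 lines tested, from 674, 526 and 558 to 319, 327 and 295 normalized counts. It fell by 0.89 on the log2 scale (standard error 0.11, adjusted p = 0.00505 from limma), without overlap, and stayed called under every setting tried. That was 1 lower and 0 higher of 6, where 6.02% of 21667 tested genes were lower and 5.3% higher. Neu1 was higher by 0.74 (95% interval 0.25 to 1.23, adjusted p = 0.0657 from limma), at 389, 515 and 567 against 243, 264 and 379, without overlap. Under 3 of 8 other settings Neu1 was called, with a mean of at least 10, a replicate block and a fit of all lines (adjusted p 0.00309 to 0.038 from limma). The mock lines differ in the construct and by passage, which cannot be told apart. The mesenchymal markers Col1a1 and Pdgfrb, 2 of 6 tested, were also higher in MC38-MOCK#2, at 134, 90 and 109 against 24, 22 and 39 and at 471, 581 and 1100 against 61, 65 and 189, while the list summed to between 33664 and 35880 there and between 36193 and 40691 in MC38-MOCK#1, and their part in the result was not tested. B4galt6, by contrast, differed by -0.17 (95% interval -0.37 to 0.02).

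MC38-WT against MC38-MOCK#1 called 0 of 6 genes, where 2.7% of 21621 tested genes were higher and 2.81% lower. Ugcg, at 456, 355 and 482 against 674, 526 and 558, differed by -0.45 (95% interval -0.79 to -0.10, adjusted p = 0.14 from limma). The value of MC38-COSMC KO was -0.45 against the same mock samples. Gla differed by 0.50 (95% interval -0.05 to 1.04) and Neu3, at 16, 16 and 15 against 25, 24 and 22, by -0.56 (95% interval -1.17 to 0.04). Samples of Ugcg and of Neu3 did not overlap between these lines, and at an unadjusted p below 0.05 Ugcg alone passed. MC38-MOCK#2 against MC38-WT also called 0 of 6, where 1.35% of 21292 tested genes were higher and 1.77% lower. There Ugcg differed by -0.45 (95% interval -0.76 to -0.14, adjusted p = 0.136 from limma) and Neu1 by 0.56 (95% interval 0.15 to 0.97, adjusted p = 0.155 from limma), and at an unadjusted p below 0.05 these 2 of 6 passed. St3gal5, B3galnt1 and Gbgt1 were called higher in MC38-MOCK#2 than in MC38-WT, St3gal5 by 0.80 and Gbgt1 by 2.77 on the log2 scale, and B3galnt1 at 26, 23 and 21 normalized counts against 6, 6 and 2. The markers called were Vil1, higher, and Col1a2, lower in MC38-MOCK#2 than in MC38-WT, and Col1a2 and Pdgfrb, higher in MC38-WT than in MC38-MOCK#1.

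The genes whose pattern over the 24 samples was most like each of these were looked up among 10873 genes with a mean of at least 50 normalized counts, by the Pearson r of log2 values. For Ugcg they were Dennd5b and Pax5 (r = 0.87 each), for B4galt5 Txndc5 (r = 0.80) and Calm3 (r = 0.79), and for B4galt6 Pias2 (r = 0.90) and Ubtd2 (r = 0.89). With the line means removed, r fell to 0.09 for Pias2 and to 0.10 for Ubtd2, so the likeness to B4galt6 lay between lines. For Gla they were Pramef8 (r = 0.86) and Pnpla8 (r = 0.85), and here r within lines was 0.87 and 0.78. For Neu1 they were Wbp2 and Cdh26 (r = 0.85 each), with 0.57 and 0.49 within lines. For Neu3 they were C78283 and Dicer1 (r = 0.75 each), the lowest of the 6 genes. The 24 samples share 8 lines, and the pairs were the highest of many.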

How the data were processed

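RNA of 24 samples of MC38 cells, 3 from each of 8 lines, was analysed. Per the labels and the study's methods, the authors made stranded mRNA libraries, trimmed the reads, aligned them to GRCm38 with HISAT2 2.0.4, counted them per gene with featureCounts (Subread 1.5.0-p3), leaving out reads that overlap several genes, and normalized with edgeR 3.18.1. Whether the counting used the strand is not given in the sources used here. The deposited table holds 1 score per gene and sample, a read count that the authors multiplied by a library factor (library size and TMM) and rounded, so a count model was not used. Such scaling makes the levels of a gene comparable between samples, but hides depth. Library factors, and from them the reads, were estimated from gaps and pile-ups among the rounded numbers, a step checked with 8 simulated factors.

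Of 52636 identifiers, 52403 were matched to a symbol. The number of columns of no listed sample was 0. Lines were compared with limma (lmFit and trended eBayes, version 3.58.1, R 4.3.3) on log2(value + 1), a scale that understates changes of low genes, fitted to both lines of 3 samples without covariates. Genes at 0 in more than 4 of 6 samples (8 of 12 for the interaction, 16 of 24 for the F test) were left out, p-values were adjusted over all genes tested (Benjamini-Hochberg), and an adjusted p below 0.05 was called. Intervals are 95% intervals from the same fit. The script was tested on simulated data. Other steps ran in Python 3.11.15 (pandas 2.3.3, numpy 2.4.6, and matplotlib 3.10.9 for plots). Where samples come from separate passages, p-values measure the spread between passages of 1 line, and lines were not made anew.

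The 8 genes and the lists were chosen with earlier results of these data known. The text names these genes, the targeted genes, at most 4 of the called genes with the largest changes of each list in each comparison, and the 2 genes most like each of the 8. Where a list had more called genes, the others named, and also the cell type markers, Neu2, Neu4, A4galt, Ugt8a, St6galnac3, the relatives of B3gnt5 and St8sia1 and Hnrnph2, were named after their values were seen. The comparison of MC38-FUT9 with the line labelled MC38-FUT4 was added after the values were seen. Alternatives were the pseudocount, the filter, the scaling, the trend, a block for the replicate number, a fit of all lines, and leaving out each sample. Same-numbered samples were checked for pairing by the correlation of their deviations from the line means, which did not exceed 0.1 in every pair of any comparison. Some genes of the breakdown and marker lists are not reported here.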

Additional observations from a re-analysis of the deposited data

Results flagged for a closer look

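The changes of MC38-FUT9 and of the line labelled MC38-FUT4 from their shared mock line differed for 4 of the 6 expressed genes by the direct test of one line against the other (limma, 3 samples each), a comparison added after the values were seen. The difference on the log2 scale was 1.03 for B4galt6 (adjusted p = 0.000238 from limma), 0.51 for Ugcg (adjusted p = 0.00263 from limma), 0.28 for B4galt5 (adjusted p = 0.0468 from limma) and -0.45 for Neu1 (adjusted p = 0.0125 from limma). Of all tested genes, 15.7% were higher and 15.8% lower in that test. The call for B4galt5 was lost without any single one of the 6 samples (adjusted p 0.0677 to 0.153 from limma) and under 4 of 8 other settings. That for Neu1 was lost with a replicate block (adjusted p = 0.0529 from limma) and without sample 1 of either line (adjusted p = 0.0563 and 0.0574 from limma). B4galt6 rose against MC38-MOCK#2 in MC38-FUT9 and fell in the line labelled MC38-FUT4, whose label goes against its Fut4 and Fut9 RNA.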

How the results depend on the processing

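Of 60 values of the 6 expressed genes in 10 comparisons, 11 were called. Under the 8 other settings, 0 of 480 recomputed values reversed, 11 calls were lost and 15 gained, of which 4 were of Neu1 in the line labelled MC38-FUT4 and 3 of Neu3 in MC38-FUT9, both against MC38-MOCK#2, 3 of Neu1 in MC38-MOCK#2 against MC38-MOCK#1, 1 each of Ugcg and Neu1 in MC38-MOCK#2 against MC38-WT, 1 of Gla in MC38-FUT9 against the line labelled MC38-FUT4, and 1 each of Ugcg in MC38-WT against MC38-MOCK#1 and in the interaction. Without 1 sample, 14 of 396 values reversed, in 10 results that were not called. With a replicate block the number of genes called fell from 1 to 0 for MC38-COSMC KO against MC38-MOCK#1, from 2 to 0 for the line labelled MC38-FUT4 against MC38-MOCK#2 and from 4 to 2 for MC38-FUT9 against that line, and rose from 1 to 2 for MC38-MOCK#2 against MC38-MOCK#1. The block changed no other count of these genes. By the cutoff of 0.1 the numbers did not pair the samples (mean correlations of -0.0988 to 0.167). All 3 correlations were yet positive for MC38-MOCK#2 against MC38-MOCK#1 (0.0821 to 0.254) and for MC38-FUT9 against MC38-MOCK#2 (0.0928 to 0.193) and against the line labelled MC38-FUT4 (0.0279 to 0.118). Each other comparison held a negative one. eBayes without a trend gave 0 for MC38-COSMC KO against MC38-MOCK#1 and for the line labelled MC38-FUT4 against MC38-MOCK#2. A fit of all 8 lines gave 1 for MC38-WT against MC38-MOCK#1 (Ugcg), 2 for MC38-MOCK#2 against MC38-WT and 2 for MC38-MOCK#2 against MC38-MOCK#1, as did a mean of at least 10 in the last. Rescaling to the same total gave 1 for the interaction (Ugcg, adjusted p = 0.0334 from limma), and no scaling moved the median of all genes by over 0.1. The cause of these shifts was not tested. Without 1 sample the count ranged from 0 to 0 for MC38-COSMC KO, 0 to 2 for the line labelled MC38-FUT4, 3 to 4 for MC38-FUT9 against MC38-MOCK#2, 2 to 3 against the line labelled MC38-FUT4, 0 to 1 for the interaction and 5 to 6 over all lines.

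The values that reversed ranged, without 1 sample and on the log2 scale, from -0.0418 to 0.0295 for B4galt5, -0.0366 to 0.32 for Gla, -0.28 to 0.0412 for Neu1 and -0.0377 to 0.12 for Neu3 in MC38-COSMC KO against MC38-MOCK#1, from -0.25 to 0.10 for Gla and -0.0167 to 0.30 for Neu1 in MC38-DKO against MC38-MOCK#1, from -0.31 to 0.10 for Gla and -0.10 to 0.10 for Neu3 in MC38-MOCK#2 against MC38-WT, and from -0.0185 to 0.18 for B4galt6 and -0.11 to 0.23 for Neu1 in the interaction. The 3 samples per line limit what could be called, and Neu3, at 14 to 36 normalized counts, had the widest intervals.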
